A study of Homo sapiens with 6 samples.

Results

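Insulin signalling and FOXO target genes were followed in AsPC-1, a human pancreatic adenocarcinoma line of epithelial origin, after knockdown of HMOX1, which encodes the heme-degrading enzyme heme oxygenase-1. The 10 genes are the transcription factor genes FOXO1, FOXO3 and FOXO4, the receptor genes INSR and IGF1R, the substrate genes IRS1 and IRS2, and the FOXO target genes CCNG2, PNRC1 and SESN3. They were taken by symbol from 20263 genes of the count table, with earlier results of these data known, and all 10 passed the expression filter, which kept 13769 genes. Cells received a negative control siRNA (siControl) or 1 of 2 siRNAs against HMOX1 (HMOX1si1 and HMOX1si2) with the jetPRIME reagent, and each group held 2 mRNA libraries. All groups were transfected, and the labels give neither the dose nor the time to harvest. The study asks how HMOX1 may act on the proliferation of pancreatic cancer cells.

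Insulin and the insulin-like growth factors bind the receptor tyrosine kinases INSR and IGF1R, which phosphorylate the docking proteins IRS1 and IRS2 and thereby recruit PI3-kinase and activate AKT. AKT phosphorylates the FOXO factors, which then leave the nucleus and stop driving their target genes. When the signal is weak, nuclear FOXO raises genes that slow growth and, as a known feedback, genes of the receptors and substrates themselves. RNA levels do not show where the FOXO proteins are or whether they are phosphorylated.

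Library totals ran from 36144330 to 45068660 counts, and replicate libraries differed by more than sampling noise (chi-square per degree of freedom of 38.5 to 85.2). The labels do not say whether replicates were separate cultures, so the tests see no more than the variation among these libraries, some or all of which may be technical. HMOX1 had 9.06 and 8.52 CPM (counts per 1000000 counts of the library, scaled by TMM) in the controls, 2.43 and 2.80 with HMOX1si1 and 1.27 and 1.17 with HMOX1si2, so every knockdown library lay below both controls. The epithelial markers KRT8, KRT18, KRT19, EPCAM and CDH1 were all above 1 CPM in each library. Their summed level was 12570 to 14250 CPM in controls, 8694 to 9040 with HMOX1si1 and 12280 to 13010 with HMOX1si2. It was therefore lower with the first siRNA, and the part of this in the results on that siRNA was not tested. Of the 15 markers of fibroblasts, blood, endothelium, and endocrine and acinar cells, CD14 (5.90 to 10.3 CPM) and COL1A1 (2.52 to 4.63 CPM) were above 1 CPM throughout, and CD3E, HBB and CPA1 had no count. Summed by type over siControl, HMOX1si1 and HMOX1si2, the 4 blood markers reached 9.78 to 10.1, 5.90 to 6.49 and 9.50 to 10.3 CPM, the 4 fibroblast markers 3.06 to 4.01, 3.29 to 3.90 and 4.53 to 5.14 CPM, and the 3 endothelial markers 1.17 to 1.66, 0.550 to 0.811 and 0.692 to 1.37 CPM. The 4 endocrine and acinar markers stayed at or under 0.277 CPM in sum. In bulk RNA, fewer cells of a type and less RNA per cell cannot be told apart.

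In control cells all 10 genes were expressed, with the substrates highest. Divided by the length of each gene's merged exons in GENCODE 29, IRS2 stood at 20.6 and 17.7 CPM per kilobase in the control libraries and IRS1 at 18.1 and 15.2, and these ranges overlap. PNRC1 (14.3 and 14.4), FOXO3 (14.0 and 11.8), FOXO1 (10.2 and 8.93) and INSR (5.96 and 5.68) followed in that order without overlap between neighbours. IGF1R (4.24 and 4.11) and FOXO4 (3.74 and 4.18) overlapped, and CCNG2 (3.68 and 3.41) lay just under them. SESN3 was lowest at 0.115 and 0.149 CPM per kilobase, from 44 and 70 counts, so its fold changes are imprecise. None of the 10 shares an exon with another gene of the table.

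The 2 motifs searched in promoter windows were GTAAACA (the core FOXO site) and CAAAACA (the core of the insulin response element). Both strands were read in 13 RefSeq windows of the 10 genes (GRCh38.p14), each from 250 bases before to 50 after a transcription start. GTAAACA was found in 1 of the 10 genes, FOXO4, against 4.19% of 27305 genes, and CAAAACA in 1, IRS2, against 6.05%. Bases before the RefSeq start, for CCNG2 only those before the gene in GENCODE 29, are shown for IRS2, which holds a match on the opposite strand 40 bases before the start, and for PNRC1 and CCNG2, FOXO targets that were called in opposite directions. For FOXO4 the 30 bases around its match are shown, which begins 23 bases after the RefSeq start and 5′ of the first exon of GENCODE 29. Capitals mark the matches, and the sequences read 5′ to 3′ along the gene. A match is not evidence of binding, and no match says only that these letters are not in the window.
IRS2 (minus strand, chr13:109786584-109786833): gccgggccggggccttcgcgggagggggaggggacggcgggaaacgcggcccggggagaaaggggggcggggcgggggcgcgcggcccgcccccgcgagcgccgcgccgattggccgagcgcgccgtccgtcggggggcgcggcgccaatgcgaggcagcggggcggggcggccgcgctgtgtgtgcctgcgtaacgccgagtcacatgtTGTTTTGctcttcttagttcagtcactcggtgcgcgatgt
PNRC1 (plus strand, chr6:89080501-89080750): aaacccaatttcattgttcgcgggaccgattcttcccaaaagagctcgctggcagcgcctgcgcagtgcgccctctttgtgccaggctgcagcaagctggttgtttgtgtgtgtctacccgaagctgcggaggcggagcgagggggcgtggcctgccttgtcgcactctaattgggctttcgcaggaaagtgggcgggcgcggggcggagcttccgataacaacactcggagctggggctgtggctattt
CCNG2 (plus strand, chr4:77156957-77157150): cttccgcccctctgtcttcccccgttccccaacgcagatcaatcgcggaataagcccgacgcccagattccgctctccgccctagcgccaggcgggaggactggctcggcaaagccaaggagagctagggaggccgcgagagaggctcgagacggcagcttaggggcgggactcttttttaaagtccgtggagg
FOXO4 (plus strand, chrX:71095863-71095892): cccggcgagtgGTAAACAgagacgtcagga

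With HMOX1si1, FOXO3, FOXO4, IGF1R, IRS2 and PNRC1 rose and CCNG2 fell. These 5 of 10 genes called higher compare with 5.02% of all genes tested, and the 1 called lower with 5.01% (edgeR's quasi-likelihood test, Benjamini-Hochberg adjusted p under 0.05 over all genes). The median log2 fold change of the 10 was 0.49, against −0.00 for all genes. Libraries lay wholly above the controls in 8 genes, a pattern seen in 31.9% of all genes. With HMOX1si2 edgeR called 0 of the 10, against 5.73% of all genes, while 5 had an unadjusted p under 0.05, against 25.9% of all genes, and DESeq2 called 4 (FOXO4, IGF1R, IRS2 and PNRC1), against 13.4%. The median was 0.22, and 6 genes lay wholly above the controls, against 28.9% of all genes.

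Averaged over both siRNAs, FOXO4, IGF1R, IRS2 and PNRC1 rose, 4 of 10 against 5.16% of all genes, and CCNG2 fell, 1 of 10 against 4.93%. DESeq2 called these 5 and also FOXO3 and IRS1, against 19% of all genes. The median of the 10 was 0.35. In 6 genes (FOXO4, INSR, IGF1R, IRS1, IRS2 and PNRC1) all 4 knockdown libraries exceeded both controls, as they did in 18.7% of all genes. The comparisons with control share the same 2 control libraries. The calls rest on few libraries: none of the 12 called values (6 with HMOX1si1, 5 on average and 1 between the siRNAs) passed without siControl replicate 1, siControl replicate 2, HMOX1si1 replicate 1 or HMOX1si1 replicate 2. All 12 kept their direction in these refits, in which edgeR also called fewer of all genes than in the full fit. Without HMOX1si2 replicate 1, FOXO4, IRS2 and CCNG2 missed the threshold on average (edgeR adjusted p of 0.0570 to 0.0684).

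**Figure D1:**
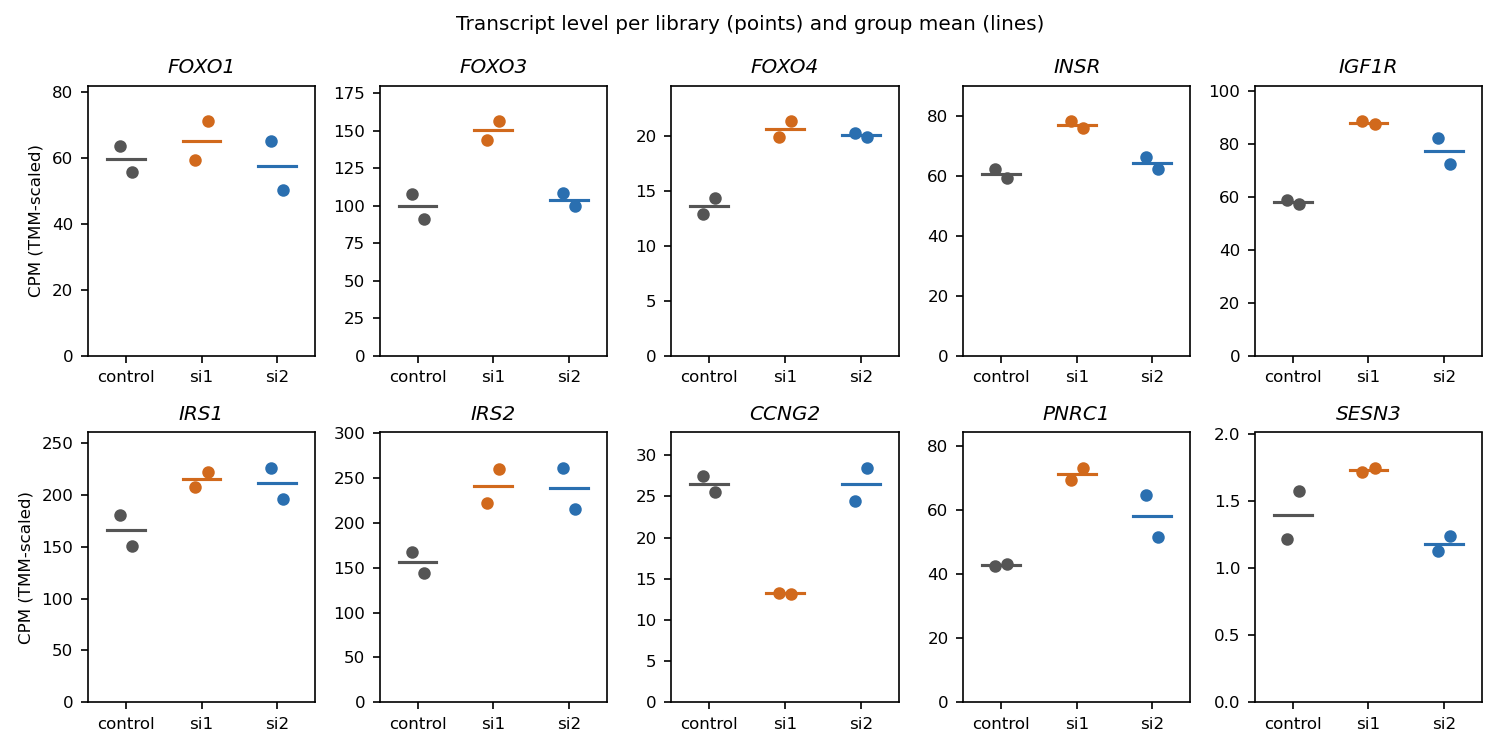
CPM scaled by TMM on the vertical axes, from 0, for the 10 genes in siControl (control), HMOX1si1 (si1) and HMOX1si2 (si2). Points are the 2 libraries of a group and lines their mean; CCNG2 is low at 13.3 and 13.2 CPM in HMOX1si1 only, whereas IRS2, IGF1R, FOXO4 and PNRC1 lie above both controls in all 4 knockdown libraries.

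The FOXO factors did not move alike. FOXO4 (ENSG00000184481, chromosome X, 71096197 to 71103535, plus strand, GRCh38), the least abundant of the 3 per length, stood at 12.9 and 14.4 CPM in controls, 19.9 and 21.4 with HMOX1si1 and 20.3 and 19.9 with HMOX1si2. All 4 knockdown libraries were above both controls. Log2 fold changes were 0.60 for HMOX1si1 (SE 0.12, edgeR adjusted p = 0.0331) and 0.56 for HMOX1si2 (SE 0.12, edgeR adjusted p = 0.0507), and 0.58 on average (edgeR adjusted p = 0.0284). HMOX1si2 stood −0.04 from HMOX1si1 on the log2 scale, with a 95% interval from −0.32 to 0.25. With library totals in place of TMM the HMOX1si2 value passed (edgeR adjusted p = 0.0481).

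FOXO3 (ENSG00000118689, chromosome 6, 108559835 to 108684774, plus strand), a factor broadly tied to growth arrest and stress resistance, stood at 108 and 91.4 CPM in controls, 144 and 156 with HMOX1si1 and 109 and 99.8 with HMOX1si2. Only the HMOX1si1 libraries stood clear of the controls. FOXO3 rose by 0.59 on the log2 scale with HMOX1si1 (SE 0.12, edgeR adjusted p = 0.0332), and with HMOX1si2 the value was 0.06 (95% interval −0.22 to 0.35). HMOX1si2 stood −0.53 from HMOX1si1 (95% interval −0.82 to −0.24, edgeR adjusted p = 0.0688), which edgeR did not call and DESeq2 called (adjusted p = 0.00395). FOXO3 has a near-identical copy, FOXO3B, not analysed here, and how reads matching both were assigned is not known.

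FOXO1 (ENSG00000150907, chromosome 13, 40469953 to 40666597, minus strand), the factor best known for liver gluconeogenesis and beta-cell biology, showed no difference beyond its spread. Its levels were 63.6 and 55.7 CPM in controls, 59.2 and 71.1 with HMOX1si1 and 64.9 and 50.3 with HMOX1si2, and the groups overlapped. The average log2 fold change was 0.04, with a 95% interval from −0.31 to 0.38 that still allows a change of about that size. Per length, FOXO3 was 1.37 and 1.33 times FOXO1 in controls, 1.97 and 1.78 times with HMOX1si1 and 1.35 and 1.60 times with HMOX1si2.

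Of the receptors, IGF1R rose by edgeR's test, which did not call INSR. IGF1R (ENSG00000140443, chromosome 15, 98648539 to 98964530, plus strand), the receptor for IGF1 and IGF2, had 59.1 and 57.3 CPM in controls, 88.6 and 87.5 with HMOX1si1 and 82.3 and 72.5 with HMOX1si2. Every knockdown library was above both controls. IGF1R changed by 0.60 on the log2 scale with HMOX1si1 (SE 0.10, edgeR adjusted p = 0.0224). The value with HMOX1si2 was 0.41 (SE 0.10, edgeR adjusted p = 0.0681), and the average 0.50 (SE 0.09, edgeR adjusted p = 0.0260).

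INSR (ENSG00000171105, chromosome 19, 7112255 to 7294034, minus strand), the insulin receptor, had 62.3 and 59.4 CPM in controls, 78.3 and 75.9 with HMOX1si1 and 66.4 and 62.5 with HMOX1si2. The HMOX1si1 libraries were clearly above the others, and the lower HMOX1si2 library was nearly level with the higher control. Log2 fold changes were 0.34 (95% interval 0.12 to 0.56, edgeR adjusted p = 0.0644) and 0.08 (−0.13 to 0.30). DESeq2 called INSR with HMOX1si1 (adjusted p = 0.0192). The ratio of IGF1R to INSR per length was 0.711 and 0.724 in controls, 0.849 and 0.864 with HMOX1si1 and 0.929 and 0.869 with HMOX1si2, higher in all 4 knockdown libraries. The ratio was not tested.

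**Figure D2:**
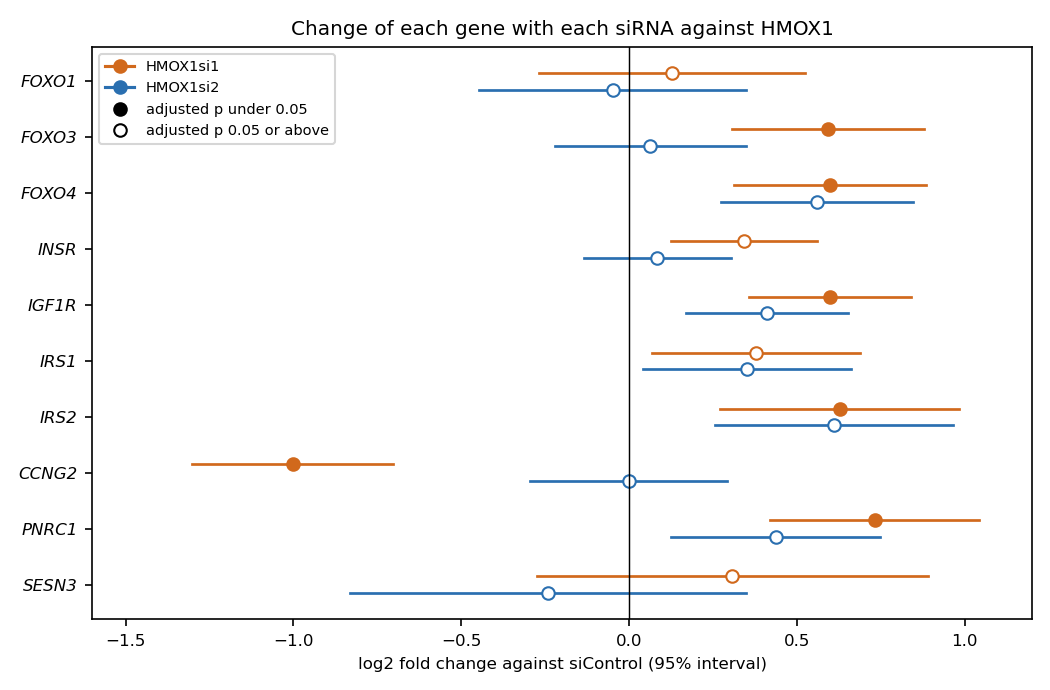
Log2 fold change against siControl (horizontal axis) of each of the 10 genes with HMOX1si1 (orange) and HMOX1si2 (blue), with 95% intervals from edgeR's test; filled points have an adjusted p under 0.05. CCNG2 lies at −1.002 with HMOX1si1 and at −0.00 with HMOX1si2, while FOXO4, IRS1 and IRS2 have nearly the same value with both.

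Both substrates had higher values with both siRNAs, and edgeR called IRS2 only. IRS2 (ENSG00000185950, chromosome 13, 109752698 to 109786568, minus strand), whose gene is a known target of FOXO and whose promoter match is shown above, had 168 and 144 CPM in controls, 222 and 260 with HMOX1si1 and 261 and 215 with HMOX1si2. The groups did not overlap with control. The change on the log2 scale was 0.63 with HMOX1si1 (SE 0.15, edgeR adjusted p = 0.0495), 0.61 with HMOX1si2 (SE 0.15, edgeR adjusted p = 0.0672) and 0.62 on average (SE 0.13, edgeR adjusted p = 0.0399). Between the siRNAs the difference was −0.02, with a 95% interval from −0.37 to 0.34.

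IRS1 (ENSG00000169047, chromosome 2, 226731317 to 226799759, minus strand), the substrate that carries much of the growth signal of IGF1R, had 180 and 151 CPM in controls, 208 and 222 with HMOX1si1 and 226 and 196 with HMOX1si2. All knockdown libraries were above both controls, but the control libraries lay far apart. The average log2 fold change was 0.36 (95% interval 0.09 to 0.64, edgeR adjusted p = 0.0901), which DESeq2 called (adjusted p = 0.0314). The ratio of IRS2 to IRS1 per length was 1.14 and 1.17 in controls, 1.31 and 1.43 with HMOX1si1 and 1.41 and 1.34 with HMOX1si2. The control ratios differed less than the levels of either gene did, and all 4 knockdown ratios were higher, though the ratio was not tested.

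**Figure D3:**
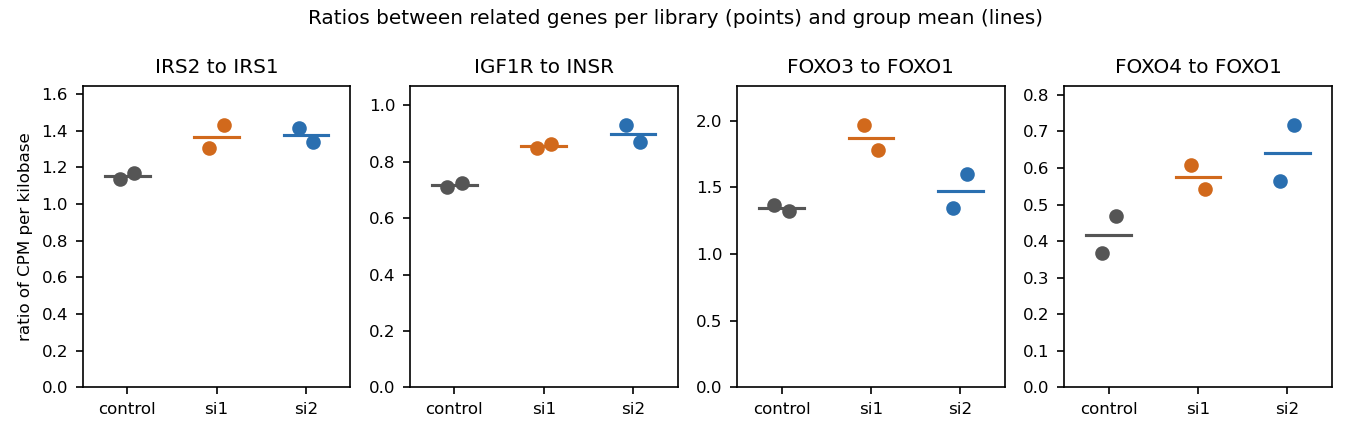
Ratios of CPM per kilobase (vertical axes, from 0) between related genes in each library (points) and as group means (lines). IRS2 to IRS1, IGF1R to INSR and FOXO4 to FOXO1 are above both controls in all 4 knockdown libraries, and FOXO3 to FOXO1 is 1.35 in the lower HMOX1si2 library, between the controls at 1.33 and 1.37.

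Of the 3 FOXO targets, CCNG2 fell and PNRC1 rose with HMOX1si1, and SESN3 was not called by edgeR or DESeq2. CCNG2 (ENSG00000138764, chromosome 4, 77157151 to 77433388, plus strand) encodes cyclin G2, an unconventional cyclin that restrains the cell cycle and is raised by FOXO when growth factor signalling is low. It had 27.5 and 25.5 CPM in controls, 13.3 and 13.2 with HMOX1si1 and 24.5 and 28.5 with HMOX1si2. The HMOX1si1 libraries were at about 0.499 of control, whereas the HMOX1si2 libraries spanned the controls.

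With HMOX1si1 CCNG2 stood at −1.002 on the log2 scale and so fell (SE 0.12, edgeR adjusted p = 0.0110), and it was at −0.00 with HMOX1si2 (95% interval −0.29 to 0.29). HMOX1si2 stood 1.001 above HMOX1si1 on the log2 scale (SE 0.12, edgeR adjusted p = 0.0176), so CCNG2 was 1 of 10 genes called higher with HMOX1si2 than with HMOX1si1, against 2.14% of all genes (3.62% were called in either direction). Its call on average (−0.50, edgeR adjusted p = 0.0381) thus comes from 1 siRNA, and the value missed the threshold with library totals as scaling (edgeR adjusted p = 0.0568). HMOX1 itself was lower with HMOX1si2 than with HMOX1si1 (edgeR adjusted p = 0.0284), a call lost when any 1 of the 6 libraries was left out (adjusted p of 0.0789 to 0.141).

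PNRC1 (ENSG00000146278, chromosome 6, 89080751 to 89085160, plus strand), a small coregulator of nuclear receptors, had 42.7 and 43.1 CPM in controls, 69.2 and 73.2 with HMOX1si1 and 64.6 and 51.5 with HMOX1si2. All knockdown libraries were higher, and the HMOX1si2 libraries lay far apart. The change on the log2 scale was 0.73 with HMOX1si1 (SE 0.13, edgeR adjusted p = 0.0255), 0.44 with HMOX1si2 (SE 0.13, edgeR adjusted p = 0.104) and 0.58 on average (SE 0.11, edgeR adjusted p = 0.0334). Without HMOX1si2 replicate 1 the HMOX1si2 value was 0.26, and the average 0.50 (edgeR adjusted p = 0.0441).

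SESN3 (ENSG00000149212, chromosome 11, 95165513 to 95232541, minus strand), a sestrin that restrains mTORC1, was near the limit of what these libraries resolve. It had 1.22 and 1.58 CPM in controls, 1.72 and 1.75 with HMOX1si1 and 1.13 and 1.24 with HMOX1si2, from 44 to 72 counts a library. The log2 fold change was 0.31 with HMOX1si1 (95% interval −0.27 to 0.89) and −0.24 with HMOX1si2 (−0.83 to 0.35), so neither direction was detectable at this depth. Without siControl replicate 1 these values were 0.13 and −0.42, and without siControl replicate 2 they were 0.52 and −0.03. Of the 10 genes, 5 (FOXO3, INSR, IGF1R, PNRC1 and SESN3) had both HMOX1si2 libraries below both HMOX1si1 libraries, a pattern seen in 26% of all genes.

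Genes whose libraries ran closest to a called gene were sought among 10838 genes whose log2 CPM averaged 2 or more, by the root mean square difference of centred log2 CPM over the 6 libraries. ARID4A (0.0122), KIAA0586 (0.0347) and KIDINS220 (0.0381) were closest to IRS2. KANSL1L (0.0405), ZNF274 (0.0491) and RNF111 (0.0572) were closest to PNRC1. RIPK4 (0.0552), AKR7A3 (0.0693) and CRB3 (0.0844) were closest to CCNG2, at log2 fold changes of −1.05, −1.05 and −0.94 with HMOX1si1 and −0.03, −0.07 and 0.03 with HMOX1si2. With 6 libraries many genes run close to any profile, and these names describe likeness only.

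The rest of the pathway was read from a list of 115 further genes, of which 103 were tested. On average 9 rose and 5 fell, 13.6% of the 103, against 10.1% of all genes, with a median log2 fold change of 0.14. DESeq2 called 36, or 35.0%, against 19% of all genes. When a control library, an HMOX1si1 library or HMOX1si2 replicate 1 was left out, edgeR called fewer of the 103 and also fewer of all genes. A group then held 1 library, so these refits cannot show whether the 103 differ from other genes in this.

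Among ligands and their binding proteins 3 of 7 tested members rose and 1 fell on average, against 5.16% and 4.93% of all genes. Of the 7, 5 had an edgeR unadjusted p under 0.05, against 31.3% of all genes, and DESeq2 called 5, against 19%. The ligand gene INS had 0 counts in each library and IGF1 at most 2, and neither was tested. IGFBP3, the main carrier of circulating IGFs, had 880 and 825 CPM in controls, 2534 and 2847 with HMOX1si1 and 1610 and 2156 with HMOX1si2 (average log2 fold change 1.40, SE 0.14, edgeR adjusted p = 0.00924). IGF2, a ligand of IGF1R, had 1.19 and 0.924 CPM in controls, 4.70 and 5.90 with HMOX1si1 and 4.22 and 2.92 with HMOX1si2 (2.04, SE 0.25, edgeR adjusted p = 0.0135). Its level stayed low, and it shares exons with the readthrough gene INS-IGF2, so its counts are uncertain. IGF2R, which clears IGF2 without signalling, rose too on average (0.47, edgeR adjusted p = 0.0410). Its value was 0.61 with HMOX1si1 (edgeR adjusted p = 0.0289) and 0.32 with HMOX1si2 (edgeR adjusted p = 0.145).

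IGFBP1, an IGF carrier whose gene is a classic target of FOXO that insulin represses, went the other way. It had 643 and 699 CPM in controls, 279 and 571 with HMOX1si1 and 173 and 201 with HMOX1si2. The HMOX1si1 libraries lay far apart, and those of HMOX1si2 were lowest. With HMOX1si2 it fell (log2 change −1.84, SE 0.32, edgeR adjusted p = 0.0365) and it fell on average (−1.25, edgeR adjusted p = 0.0396) and was at −0.66 with HMOX1si1 (edgeR adjusted p = 0.209). IGFBP4 rose with HMOX1si1 (0.60, edgeR adjusted p = 0.0194) and was at 0.04 with HMOX1si2.

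Among receptor adaptors and phosphatases 3 of 16 rose and 0 fell on average, against 5.16% and 4.93% of all genes. Their median was 0.30. Of the 16, 8 had an edgeR unadjusted p under 0.05, against 31.3% of all genes, and DESeq2 called 4 in either direction, against 19%. GAB2, a docking protein that also recruits PI3-kinase, had 13.0 and 11.3 CPM in controls, 25.1 and 28.7 with HMOX1si1 and 24.7 and 23.0 with HMOX1si2 (1.06, SE 0.12, edgeR adjusted p = 0.0116). SH2B1, an adaptor of the insulin receptor, rose by 0.46 (edgeR adjusted p = 0.0447). SOCS3, a feedback inhibitor of cytokine and insulin signalling, rose by 1.05 with HMOX1si1 (edgeR adjusted p = 0.0135) and was at 0.22 with HMOX1si2. PTPRF, a receptor phosphatase, was at 0.34 on average (edgeR adjusted p = 0.0553).

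Among 16 kinases and partners of the PI3K and AKT module edgeR called 1 on average, against 10.1% of all genes. DESeq2 called 4, against 19%, and 6 had an edgeR unadjusted p under 0.05, against 31.3%. RICTOR, the scaffold of mTORC2, which activates AKT, rose (average log2 fold change 0.53, edgeR adjusted p = 0.0389) and shares exons with OSMR. With HMOX1si1 RICTOR was at 0.71 (edgeR adjusted p = 0.0256), and with HMOX1si2 at 0.35 (edgeR adjusted p = 0.147). GSK3B (0.43), AKT1 (0.49) and PIK3R1 (0.56) did not pass on average (edgeR adjusted p of 0.0512 to 0.0979). PIK3CB, a catalytic subunit of PI3-kinase, had 103 and 102 CPM in controls, 104 and 103 with HMOX1si1 and 60.0 and 73.6 with HMOX1si2, and fell with HMOX1si2 (−0.62, edgeR adjusted p = 0.0414).

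Of 9 tested brakes on the module edgeR called 1 higher and 1 lower on average, against 5.16% and 4.93% of all genes. PHLPP1 and PHLPP2 are paired phosphatases that remove an activating phosphate from AKT. PHLPP1 had 8.46 and 8.34 CPM in controls, 15.7 and 16.7 with HMOX1si1 and 14.0 and 13.2 with HMOX1si2 and rose (0.82, SE 0.11, edgeR adjusted p = 0.0149). PHLPP2, which shares exons with MARVELD3, fell on average (−0.45, edgeR adjusted p = 0.0355), by −0.66 with HMOX1si1 and −0.24 with HMOX1si2. DEPTOR, an inhibitor of mTOR, rose with HMOX1si2 (0.42, edgeR adjusted p = 0.0467) and was at −0.03 with HMOX1si1, and the phosphatase INPPL1 was at 0.21 on average. On average 3 of the 9 had an edgeR unadjusted p under 0.05, against 31.3% of all genes, and DESeq2 called 2, against 19%.

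In the mTORC1 branch RHEB, the GTPase that switches mTORC1 on, fell (−0.43, edgeR adjusted p = 0.0497). It was 1 of 11 tested members called lower, against 4.93% of all genes, and the median of the 11 was −0.19. DESeq2 called 4 of the 11, against 19% of all genes, and 8 had an edgeR unadjusted p under 0.05 (31.3% of all genes did). TBC1D7 (−0.57), RPS6KB1 (−0.30) and EIF4EBP1 (−0.34) did not pass (edgeR adjusted p of 0.0651 to 0.0901). Among regulators of FOXO edgeR called 0 of 17 on average, against 10.1% of all genes. Of the 17, 3 had an edgeR unadjusted p under 0.05, against 31.3% of all genes, and DESeq2 called 3, against 19%. The values were 0.76 for CREBBP and 0.61 for EP300, acetyltransferases that act on FOXO, and 0.26 and −0.86 for the 14-3-3 genes YWHAG and YWHAB, whose proteins hold phosphorylated FOXO in the cytoplasm. YWHAB had 347 and 133 CPM in the controls, and its value was −0.02 without siControl replicate 1.

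Of 22 other FOXO targets TXNIP alone was called on average by edgeR, against 10.1% of all genes. The 22 leave out IGFBP1, a FOXO target counted above with the binding proteins, which fell on average (−1.25, edgeR adjusted p = 0.0396). However, 13 of the 22 had an edgeR unadjusted p under 0.05 (31.3% of all genes did) and DESeq2 called 12 (against 19% of all genes). TXNIP, an arrestin that restrains glucose uptake, had 199 and 194 CPM in controls, 389 and 381 with HMOX1si1 and 322 and 343 with HMOX1si2 (0.86, SE 0.08, edgeR adjusted p = 0.00757). PDK4 (0.50), which blocks pyruvate entry into mitochondria, the receptor gene ERBB3 (0.29) and the MYC antagonist gene MXI1 (0.37) did not pass (edgeR adjusted p of 0.0643 to 0.0663). The median of the 22 was 0.28.

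**Figure D4:**
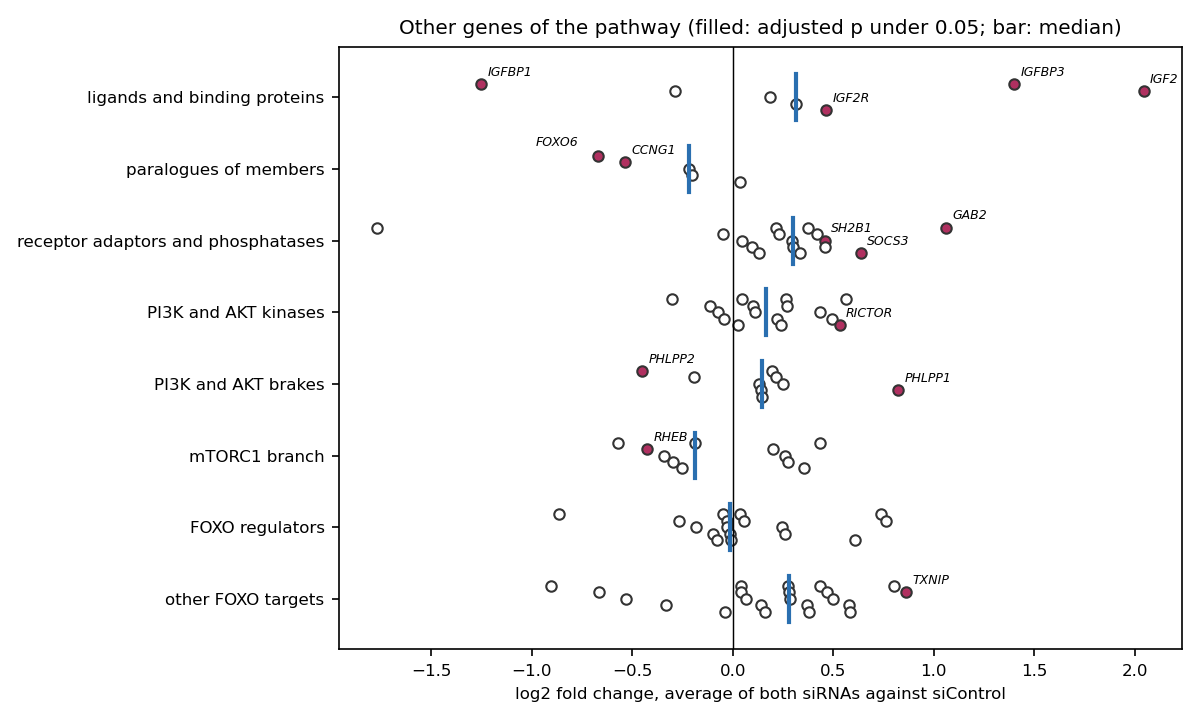
Log2 fold change on average over both siRNAs (horizontal axis) of the 103 other pathway genes tested, 1 point a gene, by list; filled points have an edgeR adjusted p under 0.05 and bars are list medians. IGF2 at 2.04 and IGFBP3 at 1.40 are the called genes farthest to the right, and IGFBP1 at −1.25 is the called gene farthest to the left.

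Of 5 tested relatives of the 10 genes 2 fell and 0 rose on average, against 4.93% and 5.16% of all genes. Of the 5, 4 had an edgeR unadjusted p under 0.05, against 31.3% of all genes, and DESeq2 called 2, against 19%. FOXO6, a FOXO factor known mainly from brain, had 13.5 and 13.0 CPM in controls, 5.63 and 6.15 with HMOX1si1 and 13.2 and 10.5 with HMOX1si2. Like CCNG2 it fell with HMOX1si1 (−1.17, SE 0.16, edgeR adjusted p = 0.0135) and was at −0.16 with HMOX1si2, and FOXO6 fell by 0.67 on average (edgeR adjusted p = 0.0340). The FOXO6 call on average thus rests mainly on HMOX1si1. CCNG1, the paralogue of CCNG2 and a p53 target, fell on average (−0.54, edgeR adjusted p = 0.0350), with −0.52 and −0.56 for HMOX1si1 and HMOX1si2. PNRC2 (−0.22) and SESN2 (−0.20) did not pass (edgeR adjusted p of 0.117 and 0.147).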

How the data were processed

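RNA of 6 AsPC-1 libraries was compared, 2 per siRNA group. The authors deposited 1 table of whole-number counts per Ensembl gene; the sources used here do not name the aligner, the counter or the strand setting. The submitters' processing notes name GRCm38 and mm10, which are mouse builds, while all gene identifiers are human; which build was counted against is unknown. Even numbers make up 71.9% of values between 1 and 10 but 49.9% of values over 100, so both mates of a fragment may have been counted.

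Symbols come from the supplied name table, and coordinates and exon lengths from GENCODE 29 (GRCh38). Genes kept by filterByExpr (13769 of 20263) were TMM-scaled and fitted, 1 mean to each group, in R 4.3.3 with edgeR 4.0.16 (glmQLFit, glmQLFTest); DESeq2 1.42.0 was an alternative. Adjusted p-values of edgeR are Benjamini-Hochberg over all genes tested, with a threshold of 0.05. DESeq2 was run on the whole table at the same threshold, and its p-values were adjusted over the genes that its own filter kept. The shares of all genes given for DESeq2 divide its calls by the 13769 genes that edgeR tested. Standard errors are the absolute log2 fold change over the square root of F, and 95% intervals use the test's degrees of freedom. The script was tested on simulated data.

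The genes, lists and tests were chosen with earlier results of these data known. Named are the 10 genes, HMOX1, up to 4 genes a list with the smallest p on average, other list genes past the threshold in a contrast, and the 3 genes closest to IRS2, PNRC1 and CCNG2. Alternatives were other scalings, no filter, DESeq2, a replicate block, only the groups compared, each library left out, and, added after seeing the data, halved counts.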

Additional observations from a re-analysis of the deposited data

Results flagged for a closer look

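Values that differed between the siRNAs by the test of that difference (HMOX1si2 minus HMOX1si1, edgeR adjusted p under 0.05) were those of CCNG2 (log2 difference 1.001, adjusted p = 0.0176 by edgeR), FOXO6 (1.01), IGFBP4 (−0.56), SOCS3 (−0.84), PIK3CB (−0.63) and DEPTOR (0.44). CCNG2, FOXO6, IGFBP4 and SOCS3 changed with HMOX1si1 and not past the threshold with HMOX1si2, and PIK3CB and DEPTOR the reverse.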

How the results depend on the processing

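Of 79 refits of the 12 called values of the 10 genes under settings other than leaving out a library, 66 kept the call, 13 lost it and 0 turned direction; 11 of the 13 were lost with the replicate block. The labels do not say whether same-numbered libraries were prepared together. Deviations of same-numbered libraries correlated at −0.066 (siControl and HMOX1si1), 0.0621 (siControl and HMOX1si2) and −0.35 (HMOX1si1 and HMOX1si2). No positive correlation above 0.0621 was seen between same-numbered libraries, but so few values cannot show that the libraries were not paired. At −0.35, deviations of HMOX1si1 and HMOX1si2 ran against each other by number, so libraries of unlike number tended to deviate together. The replicate block joins libraries by number only, and another pairing was not tested. With the replicate block, genes called went from 1381 to 481 (HMOX1si1), 789 to 45 (HMOX1si2), 1389 to 255 (average) and 499 to 87 (between siRNAs), calls among the 10 genes from 6 to 1, 0 to 0, 5 to 0 and 1 to 0, calls among the 103 other pathway genes from 11 to 8, 8 to 0, 14 to 5 and 5 to 0, and HMOX1 between the siRNAs missed the threshold (−1.10, edgeR adjusted p = 0.0770).

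DESeq2 called 2590, 1845, 2612 and 1367 genes, in that order, with 7, 4, 7 and 2 of the 10, and 28, 23, 36 and 13 of the 103. With only the groups compared, 179 genes were called with HMOX1si2 and 156 between the siRNAs, with 0 of the 10 (CCNG2 adjusted p = 0.0513) and, of the 103, 5 and 0, and HMOX1 between the siRNAs was at −1.09 (edgeR adjusted p = 0.0925). With HMOX1si2, 1 of the 10 was called with library totals and 1 with halved counts, FOXO4 in both; with library totals 3 of the 103 were called between the siRNAs.

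Leaving out 1 library gave 0 to 1492 called genes with HMOX1si1, 0 to 362 with HMOX1si2, 0 to 1594 on average and 19 to 204 between the siRNAs, and 0 to 6, 0, 0 to 5 and 0 to 1 of the 10. Where edgeR called 0 genes, 2409 to 3459 passed p under 0.05 unadjusted; DESeq2 was not run on fewer libraries. HMOX1 ranged from −1.85 to −1.65, −2.90 to −2.79, −2.35 to −2.25 and −1.20 to −0.99. Its call was lost without siControl replicate 2 (edgeR adjusted p of 0.0637, 0.0960 and 0.0955 for HMOX1si1, HMOX1si2 and the average), without siControl replicate 1 (0.0779 for HMOX1si2 and 0.0544 for the average) and, between the siRNAs, in all 6 refits (0.0789 to 0.141). A group left with 1 library was assumed to vary like the others.

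Uncalled values near 0 changed sign. Without 1 library each, FOXO1 ranged from −0.0087 (without HMOX1si1 replicate 2) to 0.25 with HMOX1si1, from −0.24 to 0.12 with HMOX1si2 (0.043 without siControl replicate 1, 0.12 without HMOX1si2 replicate 2) and from −0.058 to 0.13 on average (−0.058 without HMOX1si2 replicate 1, −0.049 without siControl replicate 2, −0.028 without HMOX1si1 replicate 2). CCNG2 with HMOX1si2 ranged from −0.12 to 0.10 (0.049 without siControl replicate 1, 0.10 without HMOX1si2 replicate 1), and was at 0.021 with library totals and 0.00015 with no filter. FOXO3 with HMOX1si2 ranged from −0.048 (without siControl replicate 2) to 0.18. SESN3 on average ranged from −0.14 (without siControl replicate 1) to 0.24, with −0.0023 without HMOX1si2 replicate 2. Between the siRNAs, FOXO4 ranged from −0.083 to 0.013, IRS1 from −0.13 to 0.069 and IRS2 from −0.16 to 0.11; without HMOX1si1 replicate 2 they stood at 0.013, 0.021 and 0.10, and without HMOX1si2 replicate 2 IRS1 was at 0.069 and IRS2 at 0.11. The cause was not tested.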
